A study of Mus musculus with 9 samples.

Results

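The Six-family and Eya genes were followed across 9 skeletal muscles of the mouse. Of the 22180 genes with a probe set of their own on the array, 7 made up the set, namely the 3 Six-family genes Six2, Six4 and Six5 and the 4 Eya genes Eya1, Eya2, Eya3 and Eya4. They were chosen by name, and each of the 7 had 1 probe set that the array annotation matched to no other gene. RNA came from frozen muscle of male C57BL/6J mice aged 12 weeks, without any treatment or transgene named, and each muscle was measured on 1 GeneChip whole-transcript array. Head muscles were represented by masseter and digastric (n = 2). Trapezius, supraspinatus and triceps stood for shoulder and forelimb (n = 3). Gastrocnemius, soleus, tibialis anterior and rectus femoris stood for the hindlimb (n = 4). This grouping follows general anatomy, since the labels name only the muscle. The series title asks about positional memory, the record of body position kept by adult muscle, and the muscles were therefore compared by region. Soleus, the slow postural muscle of the calf, was also set against the 8 other muscles.

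Six-family proteins are homeodomain transcription factors that bind DNA through a Six-type domain and a homeodomain. Many of them activate transcription weakly alone and work with Eya proteins, which lack DNA binding, carry a transactivation region and have phosphatase activity. Dach proteins, of the Ski family, and Groucho-type Tle proteins can turn the same complexes towards repression. In the embryo this network acts upstream of the myogenic factors in limb and trunk muscle precursors, and in adult muscle Six-family and Eya proteins are known for promoting the fast glycolytic fibre type.

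Six-family proteins recognise the MEF3 motif, TCAGGTTTC, which is known from muscle promoters that include that of myogenin. Short stretches with this motif are shown for Myog, a classical target of the family, and for Six4, the member in which a match was found. The motif, its capitals in both lines, was sought on both strands in RefSeq promoter windows (GRCm38.p6) that ran from 250 bases before to 50 bases after each transcription start, printed 5′ to 3′ on the strand of the gene.
Myog, chr1:134289910-134289938, plus strand: agaggggggcTCAGGTTTCtgtggcgttg
Six4, chr12:73113326-73113354, minus strand: tggcctggggGAAACCTGAtcggccagat

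In Myog the motif read in the direction of the gene and ended 75 bases before the start. In Six4 its reverse complement GAAACCTGA lay 90 bases before one of the annotated starts, and downstream of another. The table held windows for 5 of the 7 members (Six2, Six4, Six5, Eya3 and Eya4), and Six4 was the 1 member with a match. Over the 27025 genes with a window 0.511% had a match. Of 8 listed target genes with a window, Myog alone had a match, and 0 of 12 fast fibre genes with a window had one. A match describes the letters of the window and was not tested as a binding site.

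With 1 array per muscle, the SD within a region is a spread between different muscles, and the p-values rest on it. Muscle, animal and array effects cannot be told apart in it, and the number of arrays limits the precision. The labels do not state how many animals gave each RNA. Genes that define skeletal muscle (Acta1, Ckm, Ttn and others, 8 in all) had mean log2 levels from 10.91 to 11.59, and so were high on all 9 arrays. The SD over all probe sets was from 1.919 to 1.957 on the arrays of triceps, rectus femoris and gastrocnemius and from 2.033 to 2.077 on the 6 others. In whole muscle, fewer cells of a type and less RNA per cell cannot be told apart.

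No member passed the test between regions. In limma with Benjamini-Hochberg adjustment over all genes, 0 of 7 members were called in hindlimb against head muscles, where 0.00902% of all genes were called. The count was 0 of 7 in hindlimb against shoulder and forelimb muscles (0.00451% of all genes) and 0 of 7 in shoulder and forelimb against head muscles (0% of all genes). In soleus against the 8 others it was again 0 of 7, with 0.311% of all genes called. At an unadjusted p under 0.05 the members numbered 0, 0, 2 and 1 in the same order, against 11.9%, 3.65%, 6.92% and 6.25% of all genes. The 2 were Six2 and Eya1 and the 1 was Eya4. The median of the members' log2 differences was -0.22, 0.06, -0.14 and -0.18, beside 0.04, -0.01, 0.04 and -0.03 for all genes. The members are described below by role.

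**Figure D1:**
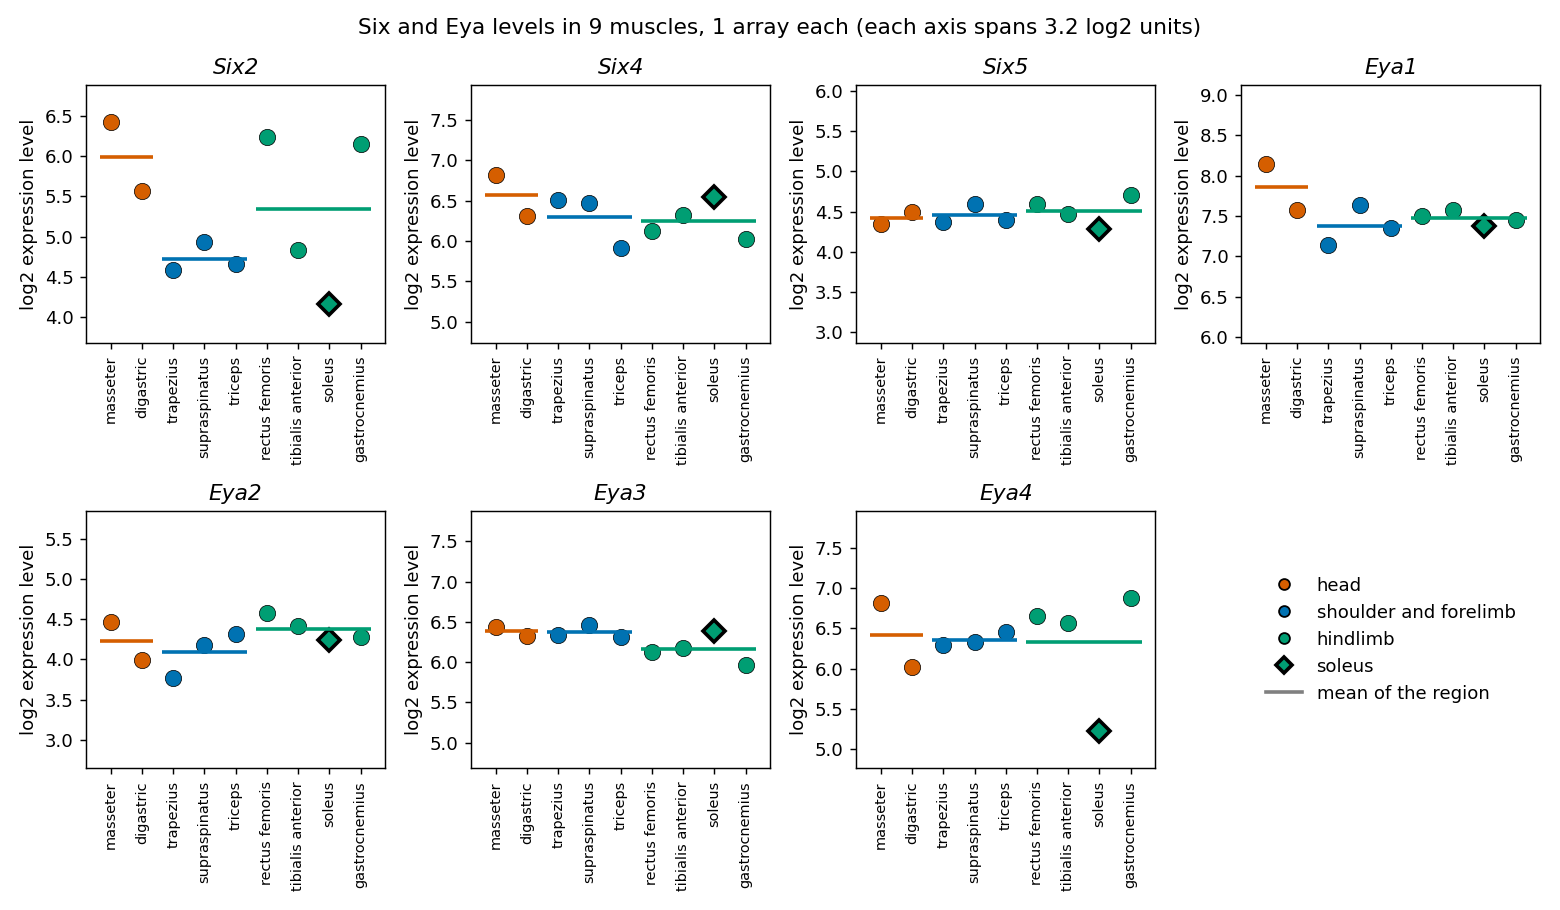
Log2 expression level (vertical axis) of each Six-family and Eya gene in the 9 muscles (horizontal axis), 1 array each, coloured by region with the mean of each region as a line and soleus as a diamond. Eya4 in soleus lies at 5.23, below the 8 other muscles at 6.02 to 6.88, and Six2 spreads most, from 4.16 in soleus to 6.42 in masseter.

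Among the Six-family genes, Six2 varied most. Six2 (probe set 17347839) is known as a factor that keeps kidney progenitors undifferentiated and that acts in head and connective tissue development. Its log2 level was 6.42 in masseter and 5.57 in digastric. It was 4.59 in trapezius, 4.93 in supraspinatus and 4.66 in triceps. In the hindlimb it was 6.24 in rectus femoris, 6.15 in gastrocnemius, 4.83 in tibialis anterior and 4.16 in soleus. Masseter, rectus femoris and gastrocnemius thus formed the upper end and soleus the lower end, so that hindlimb muscles lay at both. No step between neighbours in this order was larger than the SD within regions, 0.769. That SD itself includes the spread of the hindlimb muscles, whose SD was 1.02, against 0.18 in shoulder and forelimb and 0.60 in head muscles. The range over the 9 arrays was 2.26, beside a median of 0.81 over all genes. A range of at least 1 was reached by 3 of 7 members (Six2, Eya4 and Eya1) and by 31.3% of all genes.

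The 3 shoulder and forelimb muscles had a Six2 mean of 4.73 ± 0.18 (SD, n = 3) and lay below both head muscles, at 6.00 ± 0.60 (SD, n = 2). The log2 difference was -1.27 (SE 0.552, 95% interval -2.49 to -0.05, limma adjusted p = 0.72), and it was -1.23 among the arrays of wider value range and -0.85 without masseter. Six2 was the 1 member of 7 without overlap in that comparison, where 14.7% of all genes had every shoulder and forelimb array below both head arrays. In the comparisons of hindlimb with head and with shoulder and forelimb muscles 0 of 7 members were without overlap, against 21.2% and 4.62% of all genes. Hindlimb muscles, at 5.35 ± 1.02 (SD, n = 4), overlapped with both other regions. Their difference was -0.65 from head muscles (95% interval -1.81 to 0.51) and 0.62 from shoulder and forelimb muscles (95% interval -0.41 to 1.64). The former was -0.23 without masseter, -0.26 without soleus, -1.07 without digastric and -1.5 in the wider-range arrays. The latter was 0.32 without rectus femoris, 0.35 without gastrocnemius, 1.01 without soleus and -0.27 among the 6 arrays of wider range, a turn in direction, since rectus femoris and gastrocnemius are both of narrower range.

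Six4 (probe set 17281885), a close partner in myogenesis that binds the MEF3 motif, ran over a range of 0.91. Its log2 level was 6.82 in masseter, 6.55 in soleus, 6.51 in trapezius, 6.47 in supraspinatus, 6.32 in tibialis anterior and 6.31 in digastric. It was 6.12 in rectus femoris, 6.02 in gastrocnemius and 5.91 in triceps. The 3 lowest were the 3 arrays of narrower value range, with a mean of 6.01 against 6.50 for the 6 others. Six4 was the 1 member of 7 with this separation, which 11.8% of all genes showed. Steps between neighbours in the Six4 order were all smaller than the SD within regions, 0.295. With value range as a term, its difference between hindlimb and head muscles was -0.09 in place of -0.32, that between shoulder and forelimb and head muscles -0.12 in place of -0.27, and that between soleus and the 8 others 0.06 in place of 0.24.

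Six5 (probe set 17474480), a homeobox gene that lies next to the myotonic dystrophy kinase gene Dmpk, was the most even member. It ran from 4.28 in soleus to 4.71 in gastrocnemius, a range of 0.44. These levels were dim, 0.42 above the median gene of the array in soleus and 0.79 above it in gastrocnemius. Such signal may be partly background. The difference of hindlimb from head muscles was 0.09 (95% interval -0.29 to 0.47) and that of soleus from the 8 others -0.22 (95% interval -0.64 to 0.20). Differences anywhere within these intervals remain compatible with the 9 arrays. Soleus was the lowest of the 9 arrays for Six5, Six2 and Eya4, 3 of 7 members, where 12.7% of all genes had soleus lowest. For Six5 the gap to the next array, masseter at 4.34, was 0.06 and within the SD within regions, 0.156. Dmpk itself ran from 8.65 in tibialis anterior to 9.10 in soleus, where Six5 was lowest, and did not pass the test in soleus (log2 difference 0.28, limma adjusted p = 0.956).

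Of the Eya genes, Eya4 was set apart by 1 muscle. Eya4 (probe set 17239719) is an Eya co-activator known from inherited hearing loss and dilated cardiomyopathy. Its log2 level was 5.23 in soleus and 6.02 in digastric, the next lowest. The other muscles were at 6.29 (trapezius), 6.33 (supraspinatus), 6.46 (triceps), 6.57 (tibialis anterior), 6.66 (rectus femoris), 6.82 (masseter) and 6.88 (gastrocnemius). The step of 0.80 from digastric to soleus was larger than the SD within regions, 0.58, and was the only one of the 8 steps to be so. That SD itself includes soleus, and the 8 other muscles had an SD of 0.29.

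Soleus was 2.42-fold below the mean of the 8 others for Eya4, 6.50 ± 0.29 (SD, n = 8), a log2 difference of -1.27 (SE 0.289, 95% interval -1.91 to -0.64). This did not pass over all genes (limma adjusted p = 0.139, unadjusted p = 0.000996). The lone soleus array is assumed to vary like the 8 others, and an exact permutation test with 1 array against 8 could not go below 0.111. The adjusted p lay between 0.0589, without digastric, and 0.299, against the other 3 hindlimb muscles alone, over 18 alternative settings. In those settings the difference ran from -1.47 to -1.18. The other 3 hindlimb muscles had an Eya4 mean of 6.70 ± 0.16 (SD, n = 3). Among regions, Eya4 was at 6.42 ± 0.56 (SD, n = 2) in head, 6.36 ± 0.09 (SD, n = 3) in shoulder and forelimb and 6.33 ± 0.75 (SD, n = 4) in hindlimb muscles. The regional differences lay between -0.09 and -0.02, and their direction was not settled. Hindlimb against head muscles gave 0.28 without soleus and 0.31 without masseter, but -0.49 without digastric, -0.38 with value range as a term and -0.52 among the 6 arrays of wider range. Hindlimb against shoulder and forelimb muscles gave 0.34 without soleus and -0.41 among the arrays of wider range.

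**Figure D2:**
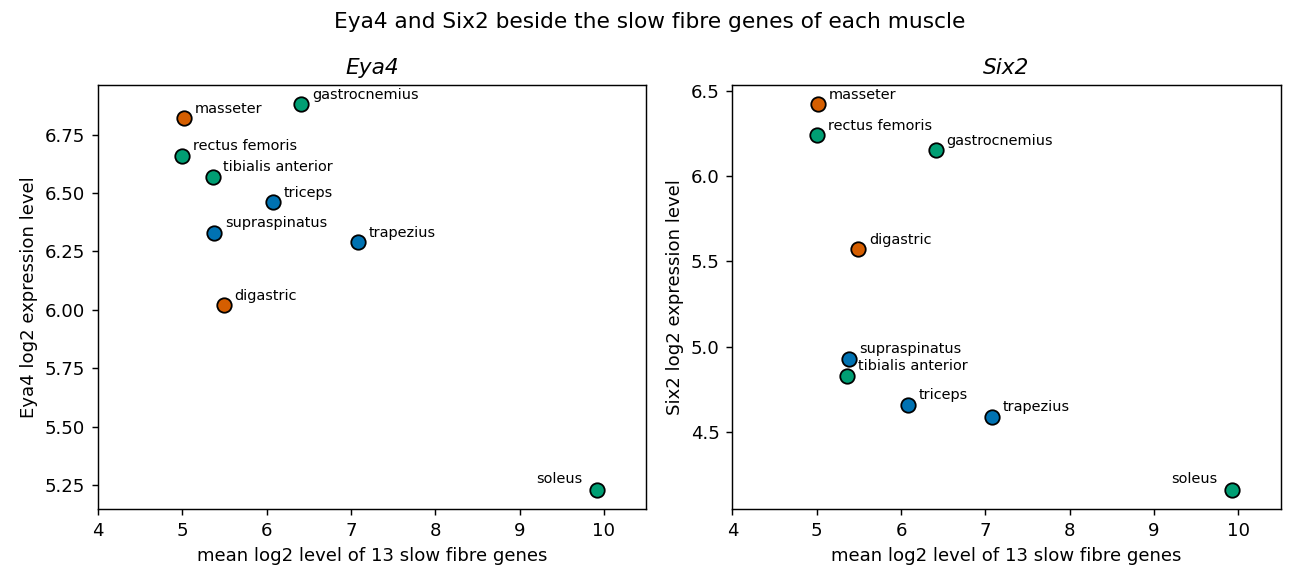
Log2 level of Eya4 (left) and Six2 (right) against the mean log2 level of 13 slow fibre genes, 1 point per muscle, with head muscles in orange, shoulder and forelimb muscles in blue and hindlimb muscles in green. Soleus, at a slow fibre mean of 9.92, is lowest for both genes. Over the 8 other muscles, at 5.0 to 7.08, the Pearson r is -0.16 for Eya4 and -0.47 for Six2. Without trapezius as well, it is 0.11 for Eya4 and -0.24 for Six2.

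The fibre type of the muscles was read from fixed lists. The mean log2 level of 13 slow fibre genes (Myh7, Tnni1, Tnnc1 and others) was 9.92 in soleus, 7.08 in trapezius, 6.41 in gastrocnemius, 6.08 in triceps and from 5.0 to 5.49 in the other 5 muscles. Of these genes 5 of 13 were called higher in soleus than in the 8 others and 0 lower, beside 0.23% of all genes called higher. Of 17 fast fibre genes 5 were called lower, namely Myh4, Pvalb, Mybpc2, Actn3 and Gpd1, and 0 higher, beside 0.0812% of all genes called lower. The mean of the fast fibre genes was 10.54 in soleus and from 11.37 to 11.90 in the 8 others. Across the 9 muscles Eya4 had a Pearson r of -0.80 with the slow fibre mean, and -0.16 without soleus, so that the relation rests on that muscle. Six2 had an r of -0.63, and -0.47 without soleus. Eya1 had -0.52, and -0.76 without soleus, and the dim Eya2 had -0.33, and -0.72 without soleus. Six5 had -0.49, and -0.06 without soleus. Six4 and Eya3 were each at 0.15, and at -0.23 and -0.18 without soleus. The values also depended on trapezius, next to soleus in the slow fibre mean. Without soleus and trapezius, r was -0.61 for Eya1, -0.37 for Eya2 and -0.24 for Six2. It was then -0.68 for Six4, -0.48 for Eya3, 0.11 for Eya4 and 0.38 for Six5. These are descriptions over arrays of muscles that also differ in region and value range. Tendon markers were also highest in soleus, with a mean of 6.63 over 10 genes against 4.24 to 6.21 elsewhere, and 10 of 10 differences were positive, with 0 called. Endothelial markers had a mean of 7.30 in soleus, below digastric at 7.38 and above the 7 others, and 7 of 7 differences were positive (median 0.59), with 0 called. Their part in the Eya4 and Six2 levels was not tested.

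Eya1 (probe set 17221375), the co-activator that with Six-family proteins drives fast fibre genes, had its highest level in masseter. Its log2 level was 8.14 in masseter and 7.57 in digastric. In shoulder and forelimb muscles it was 7.14 in trapezius, 7.64 in supraspinatus and 7.35 in triceps. In the hindlimb the 4 muscles lay close together, at 7.50 (rectus femoris), 7.58 (tibialis anterior), 7.37 (soleus) and 7.45 (gastrocnemius). Masseter stood 0.50 above the next muscle, supraspinatus, more than the SD within regions of 0.229, and the 7 other steps were smaller than it. Eya1 differed by -0.48 between shoulder and forelimb and head muscles (SE 0.213, 95% interval -0.95 to -0.01, limma adjusted p = 0.72), and by -0.19 without masseter. It differed by -0.38 between hindlimb and head muscles (adjusted p = 0.466), where the value was -0.10 without masseter and -0.67 without digastric, and by -0.18 between soleus and the others (95% interval -0.81 to 0.46, adjusted p = 1). Masseter was the highest of the 9 arrays for Eya1, Six2 and Six4, 3 of 7 members, where 11.7% of all genes had it highest.

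Salivary gland markers were on average also highest in the head muscles. Their mean over 6 genes was 3.98 in masseter and 3.49 in digastric against 2.65 to 2.90 elsewhere, with 0 of 6 called. In hindlimb against head muscles the differences were large for Klk1 (-2.44), Bpifa2 (-1.94) and Amy1 (-1.16). They were smaller for Smr3a (-0.39) and Muc19 (-0.13), and 1 of 6, that of Aqp5, was positive (0.36). Other marker lists moved with the comparison of shoulder and forelimb with head muscles as well, each with 0 genes called. Endothelial markers were lower in 7 of 7 (median log2 difference -0.72). Fibroblast markers were higher in 9 of 9 (0.50), myeloid markers in 6 of 6 (0.81) and fat markers in 6 of 6 (1.43). The fat mean was uneven, at 7.24 in trapezius, 5.59 in supraspinatus and 5.0 in triceps, against 4.72 in masseter and 4.65 in digastric. The myeloid mean was 5.75 in triceps, 4.99 in trapezius and 4.83 in supraspinatus, against 4.39 in masseter and 4.57 in digastric. In hindlimb against head muscles endothelial markers were again lower in 7 of 7 (median -0.60), and fibroblast markers higher in 8 of 9 (0.77), myeloid markers in 6 of 6 (0.45) and fat markers in 5 of 6 (0.51). The part of these cell types in the Six2 and Eya1 levels of the head muscles was not tested.

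Eya3 (probe set 17419443), an Eya protein expressed in many tissues, was nearly even at 5.96 to 6.46. It was lowest in gastrocnemius (5.96), rectus femoris (6.12) and tibialis anterior (6.17), while soleus, at 6.39, lay with the head and shoulder muscles. The step from rectus femoris to gastrocnemius was 0.16 and the SD within regions 0.137. The difference of hindlimb from head muscles was -0.22 (95% interval -0.58 to 0.14) and that of soleus from the others 0.12 (95% interval -0.34 to 0.59), both without a call. Among the arrays of wider range these were -0.10 and 0.04. Eya2 (probe set 17379692), which takes part in early muscle and sensory development, was dim. It ran from 3.77 in trapezius to 4.57 in rectus femoris, while the median gene of an array was at 3.79 to 3.95, and such dim signal may be background. Its 4 hindlimb values, from 4.24 to 4.57, were within the range of the head and shoulder values except for rectus femoris. The difference of hindlimb from shoulder and forelimb muscles was 0.29 (95% interval -0.11 to 0.70, adjusted p = 1), and no step in its order exceeded the SD within regions, 0.238.

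**Figure D3:**
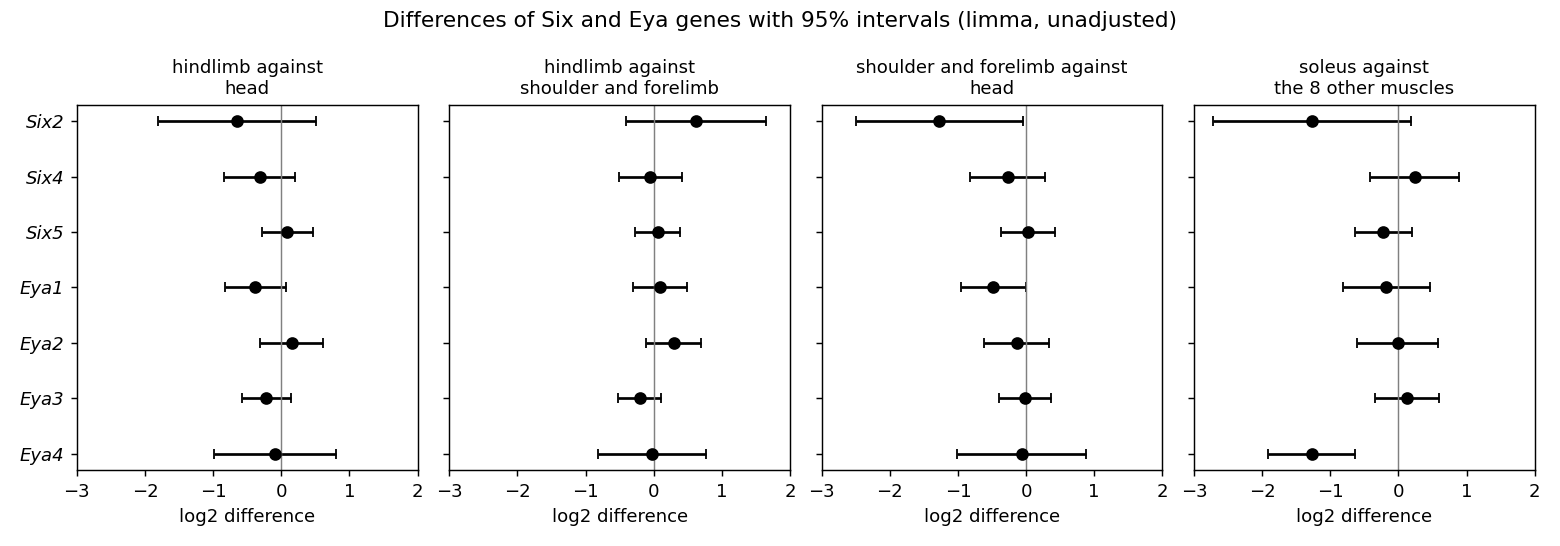
Log2 differences (horizontal axis) of the 7 genes (vertical axis) in 4 comparisons, with 95% intervals from limma that are not adjusted for the number of genes. The intervals of Eya4 in soleus, -1.91 to -0.64, and of Six2 and Eya1 in shoulder and forelimb against head muscles leave out 0, the others include it, and those of Six2 are the widest in each comparison.

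Across the 9 arrays the members did not all rise and fall together. Over the 21 pairs the Pearson r across the 9 arrays ran from -0.66 (Six5 with Eya3) to 0.70 (Six2 with Eya4), with a median of 0.27, and 12 of 21 were positive. Six2 with Eya4 gave 0.59 without soleus and 0.67 among the 6 arrays of wider range. Six4 with Eya3 gave 0.69, and 0.65 among those 6. Other pairs depended on the arrays of narrower range. Six5 with Eya3 was -0.07 among those 6, and Six2 with Six4 was 0.45 in place of -0.04. Six4 with Six5 stayed negative, at -0.54 over the 9 arrays and -0.57 among those 6. These values are descriptions over 9 arrays that differ in value range and fibre type.

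The genes most like each member were taken as those with the highest Pearson r over the 9 arrays among 5785 genes with a mean at or above the median gene and an SD of at least 0.25. For Eya4 they were Fbp2, the muscle fructose bisphosphatase (r = 0.978), the transcription factor gene Tef (0.948) and Ky (0.941), a gene whose loss causes kyphoscoliosis in mice. Without soleus these values were 0.92, 0.88 and 0.79. For Six4 they were Fbxl20 (0.975), Slc38a9 (0.966) and Gnao1 (0.963). For Eya3 they were Neat1 (0.962), Map1lc3b (0.960) and Psmb2 (0.959). For Eya1 they were Ikzf2 (0.944), Zfp326 (0.904) and Tedc2 (0.886), the last of which was 0.12 without the 2 arrays farthest from the median. For Eya2 the closest was Asb2 (0.932), for Six5 Knop1 (0.915) and for Six2 H2bc21 (0.855). With so many genes ranked over 9 arrays, high values are found for any member, and these are descriptions.

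Partners of the complex were taken from a list of 12 genes, all measured. Of these, 0 of 12 were called in each of the 4 comparisons, with medians of the log2 differences of 0.11 (hindlimb against head), 0.07 (hindlimb against shoulder and forelimb), -0.13 (shoulder and forelimb against head) and 0.16 (soleus). The co-repressor gene Tle4 was at 7.51 in masseter, 6.19 in digastric and from 5.26 to 6.19 elsewhere. Its difference of hindlimb from head muscles was -1.28 (SE 0.321, limma adjusted p = 0.355). Sobp, the gene of a Six-binding protein, was likewise highest in masseter, at 7.44 against 5.89 to 6.88 in the others. Skil, of the Ski family, was at 5.55 in tibialis anterior and 5.41 in soleus and from 3.60 to 4.55 in the others. Dach1 and Dach2 were dim, at most 4.42 and 3.08. Six3 and Six6, known from the eye and forebrain, were at most 3.17 and 3.47, below the median gene of every array.

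**Figure D4:**
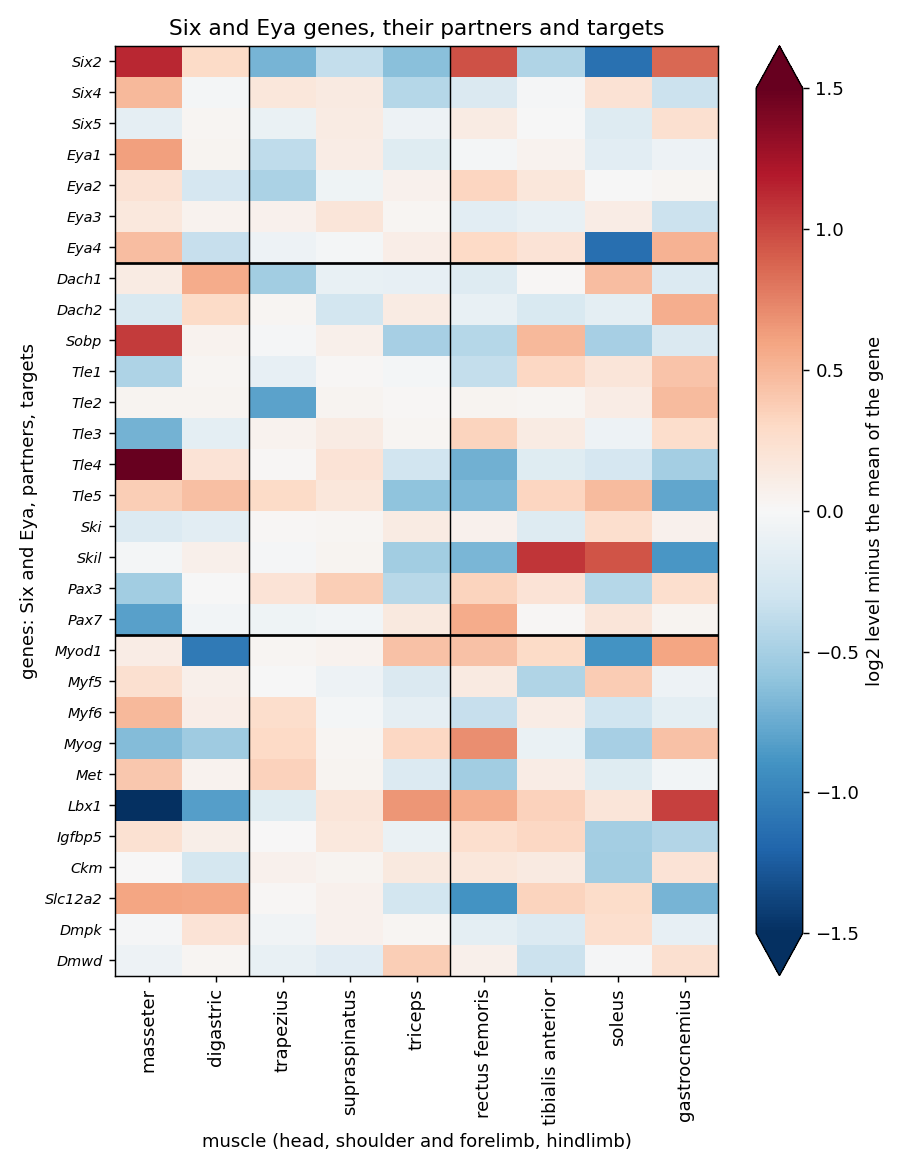
Log2 level minus the mean of each gene (colour, saturating at 1.5 in each direction) for the Six-family and Eya genes, 12 partners and 11 targets (rows) in 9 muscles (columns), with lines between regions and gene groups. Masseter is high for Six2, Eya1, Sobp and Tle4 and low for Lbx1, and soleus is low for Six2, Eya4 and Myod1.

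Known targets and neighbours were taken from a list of 13 genes, of which 11 were measured. None of the 11 was called in any of the 4 comparisons in limma, with medians of -0.15, -0.08, -0.08 and -0.20 in the order above. Myod1, the myogenic factor, was at 5.51 in soleus and 5.35 in digastric and from 6.44 to 7.0 in the 7 other muscles. Soleus and digastric were also the 2 lowest muscles for Eya4. The Pearson r of Eya4 and Myod1 was 0.83 over the 9 arrays, 0.79 without soleus and 0.58 without soleus and digastric. Myod1 differed by -1.01 in soleus (95% interval -2.02 to 0.00, adjusted p = 0.799). Myog, whose promoter holds the MEF3 motif, was at 5.50 in masseter, where Six4 was highest, and at 6.85 in rectus femoris. The Pearson r of Six4 and Myog was -0.70 over the 9 arrays and -0.33 among the 6 of wider range. Lbx1, a factor of migrating limb muscle precursors, was at 3.71 in masseter, 4.83 in digastric and from 5.47 to 6.68 in the others. Igfbp5, a growth factor binding protein gene described as a Six5 target, was lowest in soleus at 8.52, with 8.59 in gastrocnemius.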

How the data were processed

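RNA of 9 muscles was hybridised by the authors to whole-transcript GeneChip arrays, per the labels' protocols. The authors deposited log2 expression per probe set, computed with GCRMA, a background correction by probe sequence with normalization between arrays, per the submitters' processing notes. That the scale is log2 was inferred from the range, 0.12 to 13.49. Of 41345 probe sets 23521 named 1 gene, 1814 several and 16010 none here. Symbols were updated through Entrez identifiers (23328 matched), and the probe set with the highest mean per gene gave 22180 genes. No detection calls were used, and no array coordinates are given because no build is named.

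limma 3.58.1 (R 4.3.3; lmFit, eBayes) was fitted to all genes and 9 arrays, once with a mean per region (6 residual degrees of freedom) and once with soleus against the 8 others (7). Two-sided p-values were adjusted by Benjamini-Hochberg over all genes, with a threshold of 0.05. All adjusted p-values are from limma. The procedure was run on simulated data with independent noise, no value range effect and a change larger than that of any member. The simulation therefore does not measure how well differences of the size seen here would be found. Members, lists and the rule for named genes (all members, any list gene, and the genes most like a member) were chosen with earlier results of these data known. Predicted genes and microRNAs were not named. Lists of fat, Schwann, myeloid, fibroblast and smooth muscle markers had 0 called genes in each comparison. The alternatives were other scalings, the average of probe sets, leaving out dim genes, a variance trend, value range as a term or only its 6 wider arrays, other groupings, soleus as a term, and each array left out.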

Additional observations from a re-analysis of the deposited data

How the results depend on the processing

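None of the 28 differences of the members passed the threshold in limma under any alternative, in 546 values. The direction was kept throughout for 15 of the 28 and turned at least once for 13, whose sizes in the report were at most 0.62. The causes of these turns were not tested. Some alternatives could change the p-value of a difference but not its direction. Among these were the average of probe sets, since each member had 1, leaving out dim genes and the variance trend. For regional differences they also included using only the groups compared and leaving out an array of the third region. There, soleus as a term gave the same differences as leaving soleus out. No paired analysis was possible because the labels give no replicate numbers.

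In hindlimb against head muscles, Eya4 turned to 0.125 with quantile normalization, 0.087 with cyclic loess and 0.28 with soleus as a term of its own, and Six5 to -0.05 among the 6 arrays of wider range. With 1 array left out, Eya4 ran from -0.486 to 0.31 and Eya2 from -0.083 to 0.386.

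In hindlimb against shoulder and forelimb muscles, quantile normalization gave 0.033 for Six4 and 0.066 for Eya4, and cyclic loess 0.04 and 0.063. Six4 was 0.029 with value range as a term and 0.062 with the trapezius counted with the head, where Eya1 was -0.022. Among the arrays of wider range Six2 was -0.269 and Six5 -0.11. Eya4 was 0.344 with soleus as a term of its own. With 1 array left out, Six4 ran from -0.243 to 0.062, Six5 from -0.008 to 0.137, Eya1 from -0.022 to 0.23 and Eya4 from -0.208 to 0.344.

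In shoulder and forelimb against head muscles, Six5 was -0.024 with median centring and -0.013 with value range as a term. Eya3 was 0.107 with quantile normalization, 0.067 with cyclic loess, 0.043 with value range as a term, 0.013 among the arrays of wider range and 0.012 with the trapezius counted with the head. That regrouping gave 0.172 for Eya2 and 0.018 for Eya4. Eya4 was 0.059 with quantile normalization and 0.024 with cyclic loess. With 1 array left out, Six5 ran from -0.051 to 0.112, Eya2 from -0.375 to 0.095, Eya3 from -0.069 to 0.035 and Eya4 from -0.461 to 0.334.

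In soleus against the 8 others, Eya2 was 0.002 with median centring and 0.074 both with value range as a term and among the arrays of wider range. With 1 array left out it ran from -0.08 to 0.036.

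The counts over all genes moved too. The 2 genes called in hindlimb against head muscles became 1 with median centring, a variance trend, value range as a term, the arrays of wider range, only the groups compared or the trapezius with the head, and 19 with soleus as a term. With 1 array left out this count ran from 0 (masseter) to 19 (soleus), and in shoulder and forelimb against head muscles from 0 to 4 (digastric). The 69 genes called in soleus became 134 with value range as a term, 26 among the arrays of wider range, 106 with region means and a soleus term and 0 against the other 3 hindlimb muscles. With 1 array left out it ran from 32 (supraspinatus) to 93 (digastric), with 36 without triceps and 43 without tibialis anterior.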
